A study of Mus musculus with 24 samples.

Results

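Kinesins, cytoplasmic dyneins and the dynein cofactor dynactin are the motors that move cargo along microtubules, and their genes were followed through RNA-seq and ribosome profiling of mouse hippocampal slices. The members were the rows of the RNA and ribosome-protected fragment (RPF, footprint) count tables whose symbols begin with Kif followed by a digit or c, Klc, Dync1, Dync2, Dynll or Dctn. The rule found 61 of 23845 rows in the RNA table and 60 of 20436 rows in the RPF table, where the pseudogene Kif4-ps was absent. They comprised 41 kinesin motor genes, 4 kinesin light chains, 9 dynein genes, 6 dynactin genes and 1 pseudogene.

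Kinesins mostly walk towards the plus end of microtubules, which in axons points away from the cell body, and carry vesicles, mitochondria and RNA granules outward. Cytoplasmic dynein 1, working with dynactin, walks the other way and returns signalling endosomes and worn organelles. In hippocampal neurons both are needed to supply synapses and dendrites, whereas another set of kinesins builds the mitotic spindle and is little used by cells that no longer divide.

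Slices came from male wild-type (WT) mice and littermate Tsc2+/- mice aged 28 to 42 days, in which a floxed copy of Tsc2 had been deleted in the germline by CMV-Cre, so that every cell type carried 1 deleted copy. Tsc2 encodes tuberin, a brake on the growth kinase complex mTORC1. Slices received vehicle (artificial cerebrospinal fluid) or 100 µM DHPG for 5 min, which activates the group I class of metabotropic glutamate receptors. CA3 was cut away, each library pooled the slices of several mice, and cycloheximide was present in the lysis buffer of all groups. Each of the 4 groups had 3 RNA and 3 RPF libraries from shared lysates, so p-values measure the spread between such pools.

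RNA libraries held 14.8M to 24.1M counts (M, 1e6) and RPF libraries 5.30M to 13.6M counts. Motor genes took 1.29 to 1.52% of the RNA counts and 0.793 to 0.863% of the RPF counts. In 8 RPF libraries (replicates 2 and 3 of every group) 97.9 to 98.5% of the counts above 0 were even numbers, against at most 49.0% in the others, and the tests were repeated with those counts halved. The footprints of WT vehicle replicate 1 stood apart in base composition, with a rank correlation across genes of 0.513 between GC content and the library's deviation from the other libraries, and the RNA of WT vehicle replicate 3 stood apart in gene length (−0.433). Tsc2 RNA was lower in Tsc2+/- than in WT slices in every library, at 128 to 137 against 186 to 214 CPM (TMM-normalised counts per 1e6 counts) over both treatments. The 6 neuronal markers were detected throughout, and the summed RNA of 4 dentate granule markers (22.1 to 53.1 CPM) and 4 CA3 markers (75.4 to 98.7 CPM) was far below that of 5 CA1 markers (1639 to 1815 CPM). These sums are over different genes, so they do not measure the share of each region in the slices. Footprints per RNA, or translational efficiency (TE), were tested as the difference between the RPF and RNA changes of a gene.

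In unstimulated WT slices the motor genes spanned a wide range of levels. Per kb of transcript, Kif5a, a heavy chain of kinesin-1 made mainly by neurons, had the highest RNA level at 642 ± 50.3 CPM per kb (SD, n = 3). The light chain Klc1, which couples kinesin-1 to cargo, followed at 253 ± 6.68. Dynll2 and Kif5c, at 201 ± 7.78 and 201 ± 18.8, did not differ beyond their spread, and neither did Kifc2 at 169 ± 12.1 and Kif1a at 166 ± 11.7. Kif5c is another kinesin-1 heavy chain, Kifc2 a minus-end-directed kinesin of neurons, and Kif1a the kinesin-3 that carries synaptic vesicle precursors. The dynactin subunit Dctn1 (p150Glued), which binds both dynein and the microtubule, led its complex at 108 ± 3.61, and Dync1i1, a dynein intermediate chain, led the dynein 1 subunits other than the light chains at 43.9 ± 0.613, followed by the light intermediate chain Dync1li1 at 38.7 ± 2.31.

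Among the remaining classes, the kinesin-2 subunits Kif3c and Kif3a, which act in axons and in cilia, had 45.4 ± 1.17 and 34.9 ± 1.75 CPM per kb, and the kinesin-4 genes Kif21a and Kif21b 28.3 ± 1.58 and 13.4 ± 0.524. The second non-mitotic kinesin-14, Kifc3, had 17.9 ± 0.465, and Kif2a, which shortens microtubules, had 15.7 ± 0.291. The ciliary dynein 2 genes Dync2li1 and Dync2h1 stood at 8.31 ± 1.01 and 1.21 ± 0.184. Among the better expressed genes were also the light chain Klc2 (91.6 ± 2.53) and the kinesin-3 Kif1b, a carrier of mitochondria and synaptic vesicle precursors (88.7 ± 4.39), which did not differ beyond their spread.

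The order in footprints was different. Per kb of counted coding sequence, the 2 LC8 dynein light chains led, Dynll1 at 1862 ± 370 CPM per kb and Dynll2 at 1120 ± 211, and next came the small dynactin subunit Dctn6 at 374 ± 31.4 and Dctn2 (dynamitin) at 352 ± 19.1, which overlapped within their spread. Kif1a was the highest kinesin at 238 ± 12.7, with Klc1 at 206 ± 17.3 and Kif5c at 193 ± 14.3. Kif5a came after Kif1b (168 ± 6.26) at 158 ± 13.2.

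Footprints per RNA differed widely among motor genes. On a log2 scale where the median of 12758 genes is 0, footprints per RNA per length were −4.12 ± 0.43 for Kifc2, −4.10 ± 0.10 for Kif1c, a kinesin-3 of Golgi and secretory traffic, and −3.23 ± 0.24 for Kif5a. Of all genes, 0.0784, 0.0941 and 0.729%, respectively, lay at or below them, each gene itself included. At the other end were Dynll1 at 2.93 ± 0.28, Dctn6 at 2.14 ± 0.14, Dctn3 at 1.29 ± 0.10, the dynein intermediate chain Dync1i2 at 1.28 ± 0.18 and Dynll2 at 1.25 ± 0.33. Some kinesins were also above the median gene, among them the mitotic Kif18a at 1.18 ± 0.40, Kif2a at 0.92 ± 0.18 and Kif3a at 0.87 ± 0.15. The Kif18a value rested on only 11 to 21 RNA counts and 22 to 28 footprint counts a library. Kif1a lay at −0.69 ± 0.18. Of 48 motor genes with enough counts in both assays, 29 were below the median gene, and their own median was −0.68. The rank correlation of this level with coding length was −0.51 over the 48 genes, a description in which all points share the same libraries. Coding length is also a divisor in this level, so part of the correlation may be built in. The same correlation was not computed over all genes. One transcript per gene set the lengths, and footprints that map to more than 1 place had been discarded, which both bear on these levels. Kifc2 overlaps Cyhr1 and Foxh1 on the other strand, so reads from any shared stretch cannot be assigned if strand was not used in counting.

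**Figure D1:**
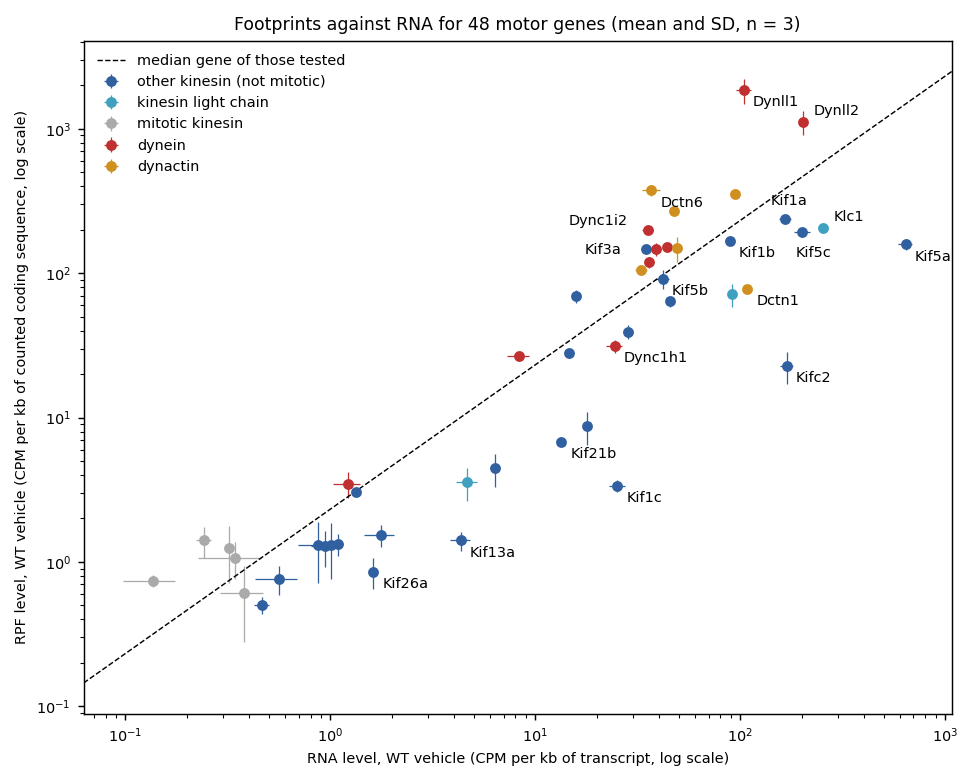
RPF level (CPM per kb of counted coding sequence) against RNA level (CPM per kb of transcript) of 48 motor genes in WT vehicle slices, both on log scales, with points at the mean of 3 libraries and bars for the SD. The dashed line marks the ratio of the median gene, and Kif5a (642 CPM per kb in RNA, 158 in RPF), Kifc2 and Kif1c lie far below it while Dynll1 and Dctn6 lie above.

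For the effect of genotype in vehicle-treated slices, 1 motor gene passed the test (adjusted p under 0.1 over all genes) in RNA, and none in footprints or TE. Kif5a RNA was higher in Tsc2+/- slices. Its level was 3969, 4401 and 3782 CPM in WT vehicle replicates 1, 2 and 3, and 4362, 5157 and 4811 CPM in Tsc2+/- vehicle. Within each replicate number the Tsc2+/- library was the higher, by 0.14, 0.23 and 0.35 on the log2 scale, although the groups overlapped because WT replicate 2 lay above Tsc2+/- replicate 1. The fitted log2 difference was 0.24 (SE 0.044, adjusted p = 0.0091, edgeR). The background was 13 of 14516 genes, or 0.0896%, called in this comparison. The call was lost without the replicate block (adjusted p = 0.99963), with ComBat and DESeq2 (0.108), with only the groups compared (0.315), without replicate 2 (0.300), without replicate 3 (0.436) and without Tsc2+/- vehicle replicate 3 (0.385), while the difference stayed between 0.18 and 0.29 in all 24 alternatives. The study had itself named Kif5a among RNAs both altered in Tsc2+/- slices and responsive to DHPG in WT slices. It gave Kif5a there as an example of an mRNA bound by FMRP, an RNA-binding protein. FMRP targets as a group, it reported, had higher RNA and lower TE in Tsc2+/- slices and after DHPG in WT. The study's genotype comparison used these samples, so the call is no independent evidence.

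Kif5a footprints were 479, 440 and 519 CPM in WT vehicle and 467, 468 and 415 CPM in Tsc2+/- vehicle, groups that overlapped. The log2 difference was −0.09 (SE 0.064, adjusted p = 0.857, edgeR). For TE the log2 difference was −0.32 (SE 0.075, adjusted p = 0.425, edgeR), with the same sign in each replicate number (−0.17, −0.14 and −0.67), and without WT vehicle replicate 2 it was −0.37 and passed the test (adjusted p = 0.0679). The gene lies at chr10:127225695-127266348 on the minus strand (GRCm38.p6, the build that mm10 names), and its 5′ end overlaps that of Dctn2 on the other strand, so reads from that stretch cannot be assigned if strand was not used in counting.

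After DHPG the genotype comparison gave the same order for Kif5a RNA. Levels were 4243, 4818 and 4373 CPM in WT DHPG and 4709, 5624 and 5049 CPM in Tsc2+/- DHPG, each replicate number again higher in Tsc2+/-. The log2 difference of 0.19 (SE 0.044, edgeR) missed the threshold (adjusted p = 0.144) but passed it in 8 of 24 alternatives, DESeq2 among them (adjusted p = 0.0140). The other kinesin-1 heavy chains had differences of the same sign that did not pass: Kif5b 0.13 in vehicle and 0.19 after DHPG, and Kif5c 0.07 and 0.11. No motor gene was called after DHPG in any measure, where the background was 0.0482% in RNA, 0.0155% in RPF and 0.00% in TE.

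The levels of neuronal and glial markers were compared beside this result. The summed RNA of the 6 neuronal markers was 5315 to 5472 CPM in WT vehicle and 5432 to 5592 CPM in Tsc2+/- vehicle, that of the 5 CA1 markers 1639 to 1708 and 1682 to 1815 CPM, and that of 6 oligodendrocyte markers 4737 to 5603 and 5200 to 6115 CPM. These 3 ranges overlapped between the groups. Of the marker lists, the blood list (2 of its 3 genes in the table) was apart in vehicle, at 8.86 to 10.3 CPM in WT and 1.21 to 7.07 CPM in Tsc2+/-. After DHPG the dentate granule list was apart, at 39.3 to 45.0 CPM in WT and 22.1 to 28.2 CPM in Tsc2+/- in RNA, and 36.0 to 37.6 and 19.98 to 28.8 CPM in footprints. The part of these markers in the Kif5a differences was not tested, and in such bulk slices more cells of a type and more RNA per cell cannot be told apart.

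Kif1a gave small differences in opposite directions in the 2 assays. Its RNA was 1346, 1486 and 1299 CPM in WT vehicle and 1474, 1510 and 1511 CPM in Tsc2+/- vehicle, with WT replicate 2 inside the Tsc2+/- range. The log2 difference was 0.12 (SE 0.049, adjusted p = 0.983, edgeR). Its footprints were 1229, 1129 and 1249 CPM in WT vehicle and 1150, 1129 and 1028 CPM in Tsc2+/- vehicle, a log2 difference of −0.12 (SE 0.053, adjusted p = 0.698, edgeR). For TE the value was −0.24 (SE 0.074, adjusted p = 0.778, edgeR). Replicate 2 contributed almost nothing to it (−0.02), against −0.23 and −0.50 in replicates 1 and 3. Without WT vehicle replicate 2 it was −0.35 and passed (adjusted p = 0.0585).

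**Figure D2:**
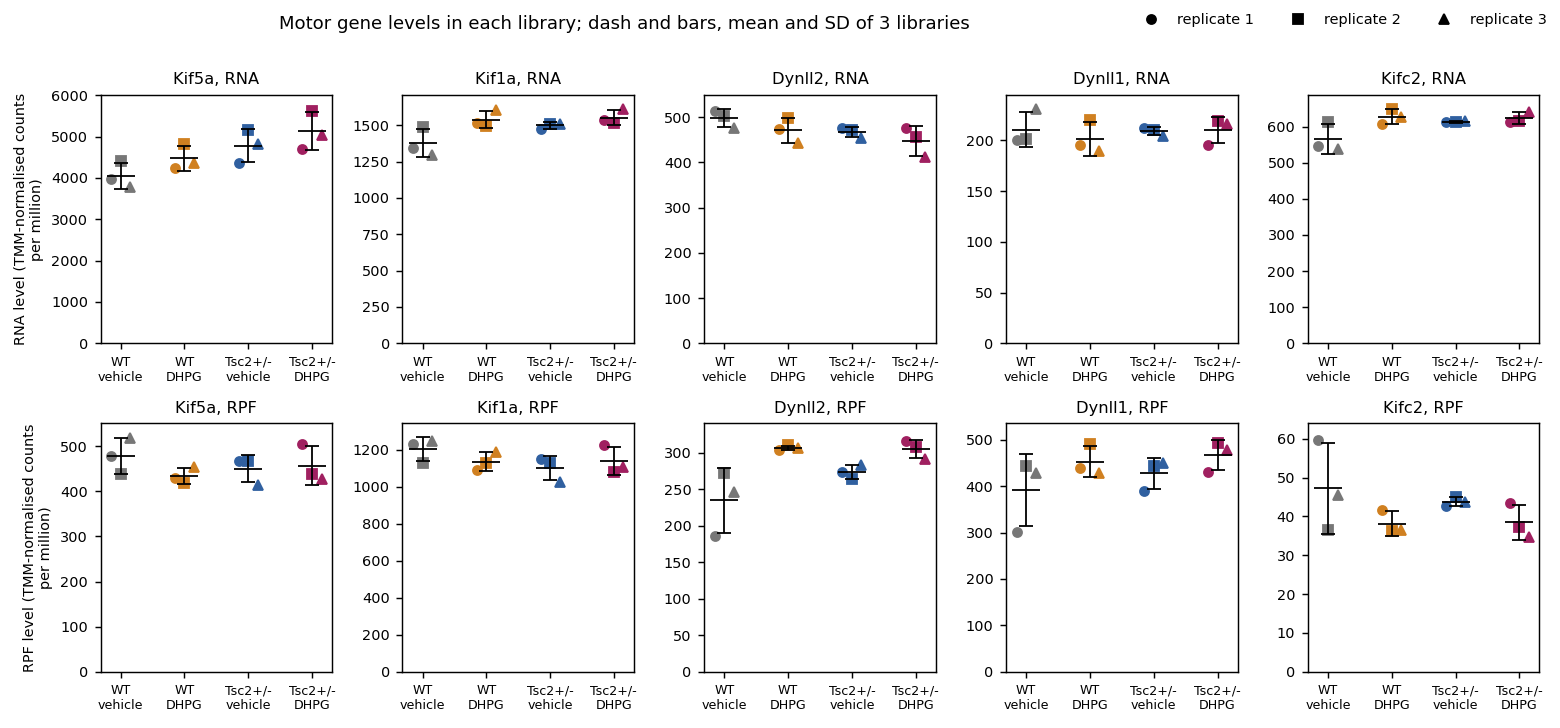
RNA (upper row) and RPF (lower row) levels of 5 motor genes, in CPM, for each library of the 4 groups, with the symbol giving the replicate number and the dash and bars the mean and SD of 3 libraries. Kif5a RNA was 3782 to 4401 CPM in WT vehicle and 4362 to 5157 CPM in Tsc2+/- vehicle, and Dynll2 footprints were 186 to 273 CPM in WT vehicle and 304 to 310 CPM in WT DHPG.

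Among the remaining motor genes, the genotype comparison in vehicle gave few differences beyond an unadjusted p of 0.05. In RNA 4 of 54 were higher and 1 lower at that level, against 2.60 and 2.30% of all genes. The higher ones were Kif5a, Kif1a, Kifc2 (0.12) and Kif5b, and the lower one was Kif24, a ciliary kinesin, at −1.59 (SE 0.76, adjusted p = 0.983, edgeR) from 2 to 12 counts a library. In RPF 1 of 48 was higher and 2 were lower (background 3.38 and 3.17%), with 0.0233% of all genes passing the adjusted threshold. The higher one was Dynll2 at 0.23 (SE 0.089, adjusted p = 0.667, edgeR), with its relative Dynll1 next at 0.14 (SE 0.070, adjusted p = 0.757). Kif26a, a kinesin-like protein that lacks motor activity, had 5.15, 3.51 and 5.71 CPM in WT vehicle footprints and 2.41, 2.65 and 1.47 CPM in Tsc2+/- vehicle. The groups did not overlap, and the log2 difference was −1.08 (SE 0.33, adjusted p = 0.536, edgeR) from 10 to 39 counts a library. In TE 2 of 48 were higher and 6 lower (background 2.71 and 3.06%, and 0.00% at the adjusted threshold). The 2 higher were Dynll2 at 0.32 and the dynactin subunit Dctn5 at 0.24, and the lower ones included Kif26a at −1.11 and Kif21b, a kinesin-4 of dendrites, at −0.31. The footprints of all 4 kinesin-4 genes of neurons and cilia had negative differences (median −0.30), of which Kif7 (−0.54, SE 0.49) and Kif27 (−0.40, SE 0.38) rested on 4 to 18 and 10 to 30 counts a library, while the better counted Kif21a and Kif21b had −0.11 and −0.21.

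For 5 min of DHPG in WT slices, 1 motor gene passed in TE, Dynll2, and none in RNA or footprints. Dynll2 encodes an LC8 light chain, a small dimeric hub protein of dynein that also binds many partners outside the motor, and Dynll1 is its close relative. The 2 mouse genes are Dynll1 at chr5:115297110-115300990 and Dynll2 at chr11:87979525-88003817, both on the minus strand and both with a coding sequence of 270 nt in 2 exons. The coding sequences, as RefSeq gives them on GRCm38.p6, are printed because footprints of 2 such close relatives could be exchanged in mapping. Capitals mark the bases at which they differ, counted without gaps.
Dynll1: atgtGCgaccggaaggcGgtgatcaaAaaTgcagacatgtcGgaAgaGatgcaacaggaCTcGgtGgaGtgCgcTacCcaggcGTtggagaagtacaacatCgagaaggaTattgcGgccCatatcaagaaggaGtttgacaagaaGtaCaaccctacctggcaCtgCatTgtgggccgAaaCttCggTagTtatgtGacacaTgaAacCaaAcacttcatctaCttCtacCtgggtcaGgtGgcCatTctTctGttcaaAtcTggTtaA
Dynll2: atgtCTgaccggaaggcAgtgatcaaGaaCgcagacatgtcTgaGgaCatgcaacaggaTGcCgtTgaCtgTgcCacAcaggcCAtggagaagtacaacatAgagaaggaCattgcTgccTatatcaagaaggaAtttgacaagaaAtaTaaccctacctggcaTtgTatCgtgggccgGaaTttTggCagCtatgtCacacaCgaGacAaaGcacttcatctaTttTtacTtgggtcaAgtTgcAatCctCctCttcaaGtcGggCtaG
They share 219 of 270 bases (81.1%), the longest stretch without a difference is 16 nt, and no run of 28 nt, about the length of a footprint, occurs in both. A uniquely mapped footprint of that length could therefore be placed on 1 of the 2.

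Dynll2 TE rose after DHPG in WT slices, the only motor gene called in TE. Dynll2 footprints were 186, 273 and 246 CPM in WT vehicle replicates 1, 2 and 3, and 304, 310 and 306 CPM in WT DHPG. All 3 DHPG libraries lay above all 3 vehicle libraries, and the vehicle libraries were the more scattered. Dynll2 RNA was 514, 504 and 477 CPM in vehicle and 474, 497 and 443 CPM after DHPG, groups that overlapped. The log2 change in footprints was 0.39 (SE 0.089, adjusted p = 0.252, edgeR), that in RNA was −0.08 (SE 0.048, adjusted p = 0.819, edgeR), and that in TE was 0.47 (SE 0.098, adjusted p = 0.0731, edgeR). Within replicate numbers the TE change was 0.82, 0.20 and 0.42. The background was 7 of 12785 genes, or 0.0548%, in TE, 0.0311% in RPF, where no motor gene was called, and 0.00% in RNA.

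This call was close to its threshold. It held in 14 of 25 alternatives, with the change between 0.31 and 0.62 in all of them. It was lost without the replicate block (adjusted p = 0.402) and with the trend on GC content and length removed (0.619). It was also lost without replicate 1 (0.95006) or 3 (0.441), and without WT vehicle replicate 1 (0.325) or 3 (0.193), WT DHPG replicate 1 (0.885), 2 (0.153) or 3 (0.379), Tsc2+/- vehicle replicate 3 (0.113) or Tsc2+/- DHPG replicate 2 (0.141). Without WT vehicle replicate 1, whose Dynll2 footprints were the lowest and whose GC trend is given above, the TE change was 0.31. In footprints Dynll2 passed with DESeq2 (adjusted p = 0.0267), with only the groups compared (6.06e-05) and without WT vehicle replicate 2 (0.00877). Dynll2 was singled out with this call known, so it is not independent support. The summed footprints of the 6 neuronal markers were 5347 to 5683 CPM in WT vehicle and 5307 to 5626 CPM in WT DHPG. The list of ependymal markers was apart in RNA, at 15.6 to 15.7 CPM in WT vehicle and 17.1 to 20.6 CPM in WT DHPG, while its footprints overlapped. The part of these markers in the result was not tested.

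Dynll1 footprints were 302, 443 and 428 CPM in WT vehicle and 440, 491 and 429 CPM in WT DHPG, with vehicle replicate 1 again the lowest. The groups overlapped. Its log2 change was 0.23 in footprints (SE 0.070, adjusted p = 0.501, edgeR) and 0.29 in TE (SE 0.10, adjusted p = 0.340, edgeR). Its RNA was 200, 201 and 231 CPM in vehicle and 195, 220 and 189 CPM after DHPG.

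In Tsc2+/- slices Dynll2 footprints were 274, 265 and 284 CPM with vehicle and 316, 308 and 291 CPM with DHPG. The DHPG libraries were again the higher, without overlap, and the log2 change in TE was 0.22 (SE 0.098, adjusted p = 0.999, edgeR). The difference between the genotypes in the DHPG effect on TE was −0.25 (SE 0.14, adjusted p = 0.999, edgeR), so the effects were not shown to differ. In vehicle the genotype difference in Dynll2 TE was 0.32 (SE 0.099, adjusted p = 0.778, edgeR). That comparison and the one for DHPG in WT share the 3 WT vehicle libraries. No motor gene was called for DHPG in Tsc2+/- slices or for the difference between genotypes, where the background was 0.00% in all 3 measures.

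Several neuronal kinesins had lower TE values after DHPG in WT slices without passing the test. Over all motor genes, 4 of 48 were higher and 7 lower in TE at an unadjusted p under 0.05, against 4.40 and 4.66% of all genes. Kifc2 footprints were 59.6, 36.4 and 45.7 CPM in vehicle and 41.8, 36.2 and 36.5 CPM after DHPG, and its RNA was 548, 612 and 538 CPM and 608, 649 and 626 CPM. Vehicle replicate 2 was within the DHPG range in both assays, so the groups overlapped. The log2 change of Kifc2 TE was −0.45 (SE 0.11, adjusted p = 0.148, edgeR), passing in 5 of 25 alternatives and largest without WT vehicle replicate 2 (−0.67, adjusted p = 0.000679).

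For Kif5a the log2 change after DHPG was 0.14 in RNA (SE 0.044, adjusted p = 0.712, edgeR), −0.14 in footprints (SE 0.064, adjusted p = 0.727) and −0.29 in TE (SE 0.075, adjusted p = 0.172). For Kif1a it was 0.16 in RNA (SE 0.049, adjusted p = 0.712, edgeR), where 1517, 1492 and 1606 CPM after DHPG all lay above the vehicle libraries, and −0.24 in TE (SE 0.074, adjusted p = 0.235). Kif21b RNA was 117, 127 and 123 CPM in vehicle and 136, 134 and 148 CPM after DHPG, again without overlap, with a log2 change of 0.19 (SE 0.056, adjusted p = 0.712, edgeR) and a TE change of −0.38 (SE 0.11, adjusted p = 0.212). All 3 genes passed in TE without WT vehicle replicate 2, at adjusted p = 0.0356 for Kif5a, 0.0155 for Kif1a and 0.0508 for Kif21b (edgeR). That library had the highest RNA of the 3 WT vehicle libraries for all 3 genes and the lowest footprints for Kif5a, Kif1a and Kif21b. In Tsc2+/- slices the log2 changes after DHPG were 0.10 in RNA and −0.08 in TE for Kif5a, and 0.05 and −0.008 for Kif1a. The difference between the genotypes in the DHPG effect on TE was 0.20 for Kif5a and 0.23 for Kif1a (adjusted p = 0.999 for Kif1a, edgeR). Neither was called, so the effects were not shown to differ. The study did call Kif5a RNA as responsive to DHPG in WT. Its comparison used more WT libraries than the 3 per group here, some of them from slices that kept CA3.

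At the same level the RNA comparison had 4 of 54 motor genes higher (Kif21b, Kif1a, Kif5a and Kifc2) and 0 lower, against 3.70 and 2.75% of all genes. By the edgeR test 0 of 54 passed the adjusted threshold, and 0 did with DESeq2. Dync2h1, the heavy chain of the ciliary dynein 2, had the smallest p among the lower ones, at −0.25 (SE 0.13, adjusted p = 0.799, edgeR). In RPF 3 of 48 were higher (Dynll2, Dynll1 and Dctn4) and 6 lower, against 3.79 and 2.92%. The lower ones included Kifc2 at −0.30, the kinesin-2 subunit Kif3c at −0.16 and Kif5c at −0.13, and Kif5c footprints were 517, 519 and 588 CPM in vehicle and 493, 479 and 513 CPM after DHPG, without overlap but short of the threshold (adjusted p = 0.715, edgeR).

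By role, the footprint changes after DHPG in WT were negative for 3 of 3 kinesin-1 heavy chains (median −0.13), 3 of 3 tested light chains (−0.09), 4 of 4 kinesin-2 genes (−0.11) and 5 of 6 kinesin-3 genes (−0.07). They were positive for both LC8 genes (median 0.31) and for 5 of 6 dynactin subunits (0.07), the exception being Dctn1 at −0.13. The dynein 1 subunits stayed near 0 (median −0.03, from −0.08 to 0.04), and all 5 tested mitotic kinesins were negative (−0.49) from low counts. Among the remaining roles, 1 of 4 kinesin-4 genes and 2 of 6 other kinesins were positive. So were 1 of 2 non-mitotic kinesin-14 genes and 1 of 2 dynein 2 genes. By length, all genes with coding sequences over 3000 nt had a median of −0.06 and those under 1500 nt one of 0.03. For motor genes these medians were −0.11 and 0.12. The part of length in the values by role was not tested. Over all 48 tested motor genes the median was −0.08 with 33 negative, beside a median of −0.0019 with 49.5% positive over 12877 genes. In Tsc2+/- slices the same 48 had a median of 0.02 with 27 positive. Within replicate numbers the WT medians were −0.09, −0.01 and −0.09. In the genotype comparison in vehicle the RPF median was −0.07 with 35 of 48 negative, beside 49.5% positive over all genes, but within replicate numbers it was 0.01, 0.00 and −0.12, so that replicate 3 alone had the negative median.

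**Figure D3:**
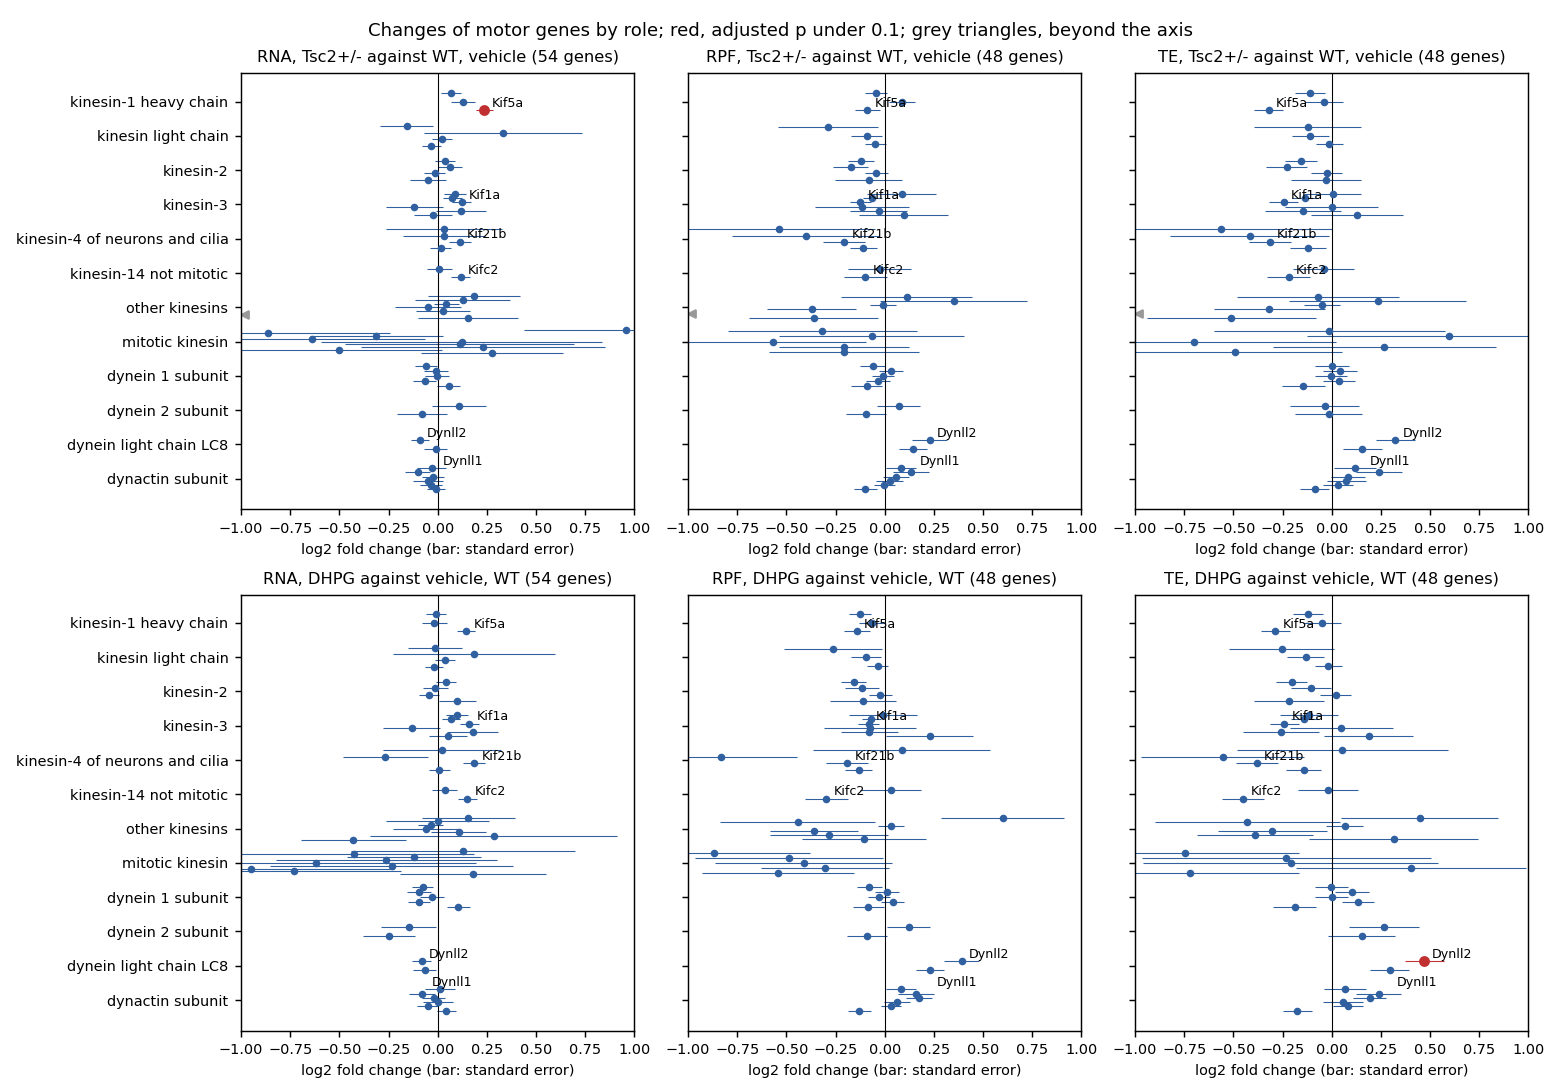
Log2 fold changes of motor genes in RNA, RPF and TE by role, with standard errors as bars, for Tsc2+/- against WT in vehicle (upper row) and DHPG against vehicle in WT (lower row). Red points passed the adjusted threshold of 0.1, which were Kif5a in RNA (0.24) and Dynll2 in TE (0.47), and grey triangles mark Kif24 in RNA and Kif26a in RPF and TE, which lie beyond −1.

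The changes were also set against coding length, which the choice of members did not use. For DHPG in WT, the 19 motor genes with coding sequences over 3000 nt had a median TE change of −0.22 and the 9 under 1500 nt one of 0.19. All genes showed a smaller difference of the same kind, −0.10 and 0.05. The rank correlation with coding length was −0.49 over the 48 motor genes and −0.28 over 12758 genes, as a description of the same libraries, and that with GC content over all genes was −0.33. For genotype in vehicle the medians were −0.14 and 0.08 for motor genes and −0.05 and 0.03 for all genes. For DHPG in Tsc2+/- slices they were −0.01 and 0.09, and for all genes −0.02 and 0.01. The short group holds the LC8 light chains and all dynactin subunits but Dctn1, so length and role cannot be told apart. The comparisons of DHPG in WT and of genotype in vehicle share the WT vehicle libraries. In WT vehicle replicate 3, rank correlations of the library's deviation with transcript length were −0.433 in RNA and 0.212 in footprints. Within replicate numbers the median TE change of the 48 motor genes was 0.09, −0.02 and −0.16 for DHPG in WT. For genotype in vehicle it was 0.06, −0.01 and −0.20. The part of WT vehicle replicate 3 in the length relation was not tested.

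**Figure D4:**
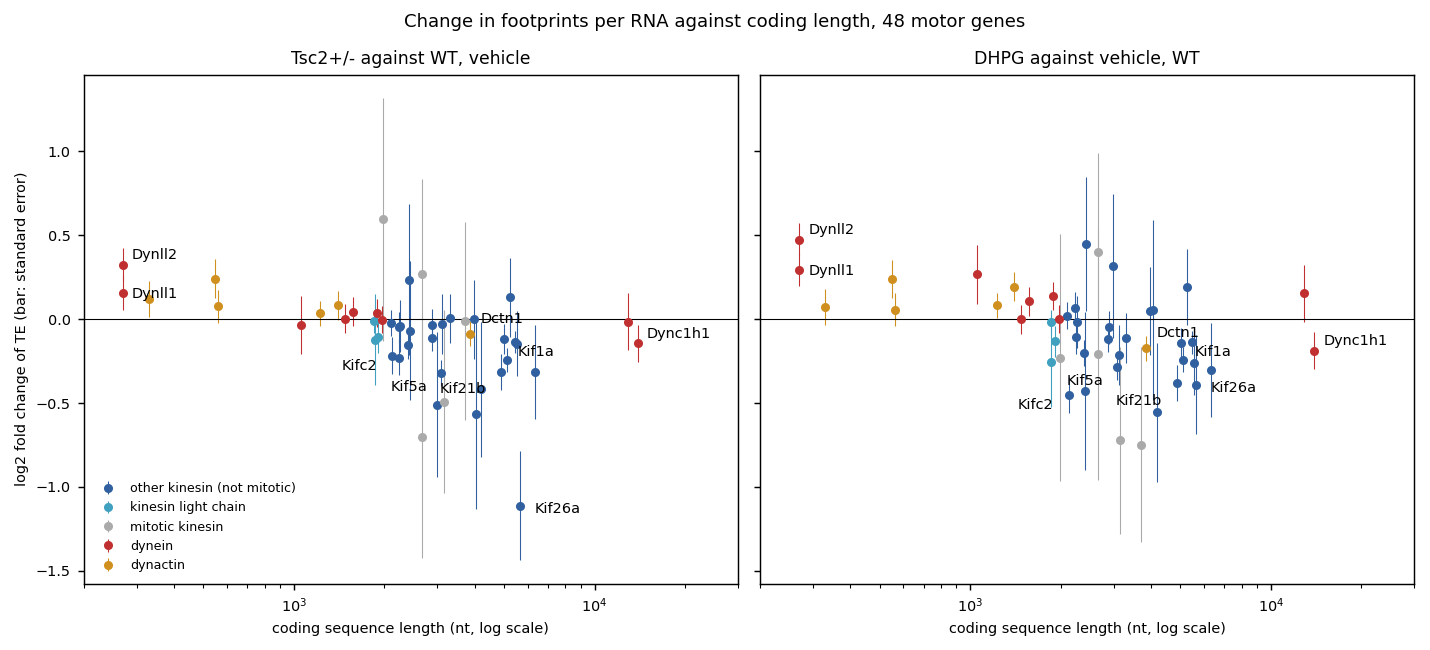
Log2 fold change of TE against coding length (nt, log scale) for 48 motor genes, with standard errors as bars, in Tsc2+/- against WT with vehicle (left) and DHPG against vehicle in WT (right). Dynll2 and Dynll1, at 270 nt, had positive values in both panels, and the 5 kinesins named (Kif5a, Kif1a, Kifc2, Kif21b and Kif26a) lie at −0.22 or below.

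Genes of the spindle and of low level gave little information. Of 13 mitotic kinesins 9 could be tested in RNA and 5 in RPF, and the highest per transcript kb, Kif4, a chromokinesin, reached 0.380 ± 0.0892 CPM per kb in WT vehicle, with Kif22 next at 0.344 ± 0.117. Beside them, 5 markers of dividing cells summed to 2.98 to 4.78 CPM in RNA. Kifc1 and Kifc5b share 68.7 and 68.9% of their 28-nt runs, so which of these 2 a read came from is uncertain. Kif12, Kif2b and Kif4-ps had 0 counts in every RNA library, which allows up to 3 counts a library, or 0.125 to 0.203 CPM by counting error alone. Kif14, Kif15, Kif2c and Kif23 had counts but did not pass the filter, and Kif18b, Kif20b, Kif24, Kifc1, Kifc5b and Klc3 passed in RNA and not in RPF.

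The partners of the motors were taken as a list of 74 genes: 28 kinesin cargo adaptors or regulators, 22 dynein adaptors or regulators and 24 microtubule-associated proteins. Of 73 tested in RNA and 72 in RPF and TE, 1 passed in any of the 15 tests, in RPF for DHPG in WT, where 0.0311% of all genes passed. Footprints of Rab11fip3, an adaptor that links recycling endosomes to dynein, fell after DHPG in WT, from 91.4, 70.3 and 87.9 CPM to 64.1, 58.1 and 66.6 CPM, without overlap. The log2 change was −0.40 (SE 0.081, adjusted p = 0.0878, edgeR), and it was negative in all 25 alternatives and passed in 11. Among those that ended the call were no replicate block (adjusted p = 0.97704), ComBat then DESeq2 (0.638) and the GC and length trend removed (0.319). The call was also lost without replicate 1 (0.919), 2 (0.325) or 3 (0.217), and without WT DHPG replicate 1 (0.989), 2 (0.32003) or 3 (0.184). Leaving out WT vehicle replicate 1 (0.145) or 3 (0.171), Tsc2+/- vehicle replicate 1 (0.163) or 2 (0.140), or Tsc2+/- DHPG replicate 3 (0.112) ended it too. Rab11fip3 RNA was 181 to 188 CPM in WT vehicle and 181 to 184 CPM in WT DHPG.

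No other partner passed. Among those with the smallest p, Map1a RNA, which encodes a dendritic microtubule-associated protein, differed by 0.17 for genotype in vehicle and 0.18 for DHPG in WT (adjusted p = 0.428 and 0.541, edgeR). Footprints of Dynlt3, a dynein light chain of another family, were 59.1, 92.1 and 78.4 CPM in WT vehicle and 96.7, 94.8 and 98.3 CPM in WT DHPG, a change of 0.35 (adjusted p = 0.280, edgeR), with replicate 1 of the vehicle group again lowest. The others in RNA were Snph (0.13, adjusted p = 0.920, edgeR) for genotype in vehicle, and Plekhm2 (0.18), Pafah1b1 (−0.13) and Capza2 (−0.14) for DHPG in WT. In footprints they were Grip1 (−0.34 for genotype, −0.33 for DHPG), Arl8b (0.14 for genotype) and Mapre2 (0.18 for DHPG). The study, by its own tests, named Snph among RNAs both altered in Tsc2+/- slices and responsive to DHPG in WT. As with Kif5a, it gave Snph as an example of an FMRP target. The kinesin adaptors had a median footprint change of −0.07 after DHPG in WT, with 7 of 28 positive, and the dynein adaptors one of 0.01, with 13 of 20 positive.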

How the data were processed

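Expected counts per gene (estimated by RSEM and rounded) were deposited by the authors for RNA and for ribosome footprints. Per the study's methods, reads were trimmed with cutadapt and Trimmomatic, cleared of rRNA and tRNA with Bowtie2, mapped to mm10 with TopHat2, kept if unique, freed of duplicates by molecular identifiers, and counted over whole transcripts (RNA) or coding sequences without 30 nt at each end (RPF). Whether counting used strand is not given in the sources used here.

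Groups came from the labels, with 3 libraries in each. Total counts per library set the precision. Counts were TMM-normalised, genes filtered by filterByExpr (minimum count 10) and tested with the quasi-likelihood F test of edgeR 4.0.16 (R 4.3.3), with group and replicate number (taken as the study's batch) as terms, over all 12 libraries of an assay. TE was the interaction of assay and group over 24 libraries, with replicate number within assay but no term for the lysate that an RNA and an RPF library share. Benjamini-Hochberg adjustment ran over every gene tested, with calls under 0.1, in 5 comparisons for each of 3 measures. Differences within replicate numbers used log2 CPM with a prior count of 2, and levels of footprints per RNA a pseudocount of 0.1 CPM. Fits were tried on simulated data whose planted changes were larger than those called here and which held no replicate or lysate effect. That trial therefore does not bear on the calls reported.

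Named genes were Kif5a, Kif1a, Dynll2, their closest relatives, every motor or partner gene called, the 2 members of each role class highest in RNA per length, and, in the comparisons of genotype in vehicle and DHPG in WT, the 2 higher and 2 lower with the smallest p. Genes named beyond these were chosen after their values were seen. The members and the lists of roles, partners and markers were chosen with earlier results of these data known. Sequences and coordinates are from RefSeq on GRCm38.p6. Alternatives were DESeq2 1.42.0, ComBat (sva 3.50.0), other normalisations and filters, the shared lysate as a block for TE, and leaving out libraries.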

Additional observations from a re-analysis of the deposited data

How the results depend on the processing

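No motor gene was called under any alternative for RPF genotype differences, TE genotype differences after DHPG, DHPG in Tsc2+/- or the interaction. Counts of called motor genes moved as follows. RNA, genotype in vehicle (1): 0 without the replicate block, with ComBat then DESeq2 and with only the groups compared, and 0 to 1 when libraries were left out. RNA, genotype after DHPG (0): 1 with DESeq2, without a filter, with only the groups compared and with the GC and length trend removed, and 0 to 1 with libraries left out. RNA, DHPG in WT (0): 0 to 2 with libraries left out. RPF, DHPG in WT (0): 1 with DESeq2 and with only the groups compared, and 0 to 1. TE, genotype in vehicle (0): 0 to 4. TE, DHPG in WT (1): 0 at an adjusted p under 0.05, without the replicate block and with the GC and length trend removed, 2 with RPF counts of replicates 2 and 3 halved, 4 with DESeq2, and 0 to 6 with libraries left out. The upper ends 2, 4 and 6 came without WT vehicle replicate 2. The genes at 2 were Kif1a and Kifc2. At 4 they were Dynll2, Kif1a, Kif5a and Kifc2, and at 6 Dynll1 and Kif21b joined them. The cause was not tested. The replicate numbers were kept as a block because the study corrected for batch. Deviations of same-numbered libraries from their group means correlated at 0.023 to 0.14 in RNA and 0.033 to 0.26 in RPF. Those of other pairs correlated at −0.13 to 0.024 and −0.19 to 0.067. Deviations from a group mean sum to 0, so positive values for same-numbered pairs push those of other pairs below 0. The ranges of other pairs are therefore not separate evidence. The pairing is a hint from the data only, and leaving the block out ended both calls.

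Of 44 named differences with an unadjusted p under 0.05, all kept their sign but 1, Capza2 RNA after DHPG in WT, whose adjusted p was 0.99851 with the GC and length trend removed. Of 44 others, 22 changed sign in some alternative, none of them larger than 0.11, and 0 were called. Low counts limited the mitotic kinesins, Kif24 RNA and the footprints of Kif6, Kif7, Kif26a and Kif27.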
